A study of Brassica napus with 2 samples.

Results

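*TT2*, *TT8* and *PAP1* are regulators of flavonoid pigment, and their transcription was measured in seeds of *B. napus* at 26 DAP, that is, days after pollination (in the sample labels, after flowering). The 3 unigenes are those that the authors assigned to the *B. napus* genes *BnaC08g07960D* (*TT2* ortholog), *BnaA09g22810D* (*TT8* ortholog) and *BnaCnng28030D* (*PAP1* ortholog), out of 50366 unigenes in the table. A unigene is the sequence that stands for a gene in a *de novo* assembly of the reads. The compared groups were seeds of the yellow-seeded line Cy2Y (genotype *YY*), a mutant found in the field, and seeds of its brown-seeded near-isogenic line Cy2B (genotype *yy*). Both pure lines came from repeated selfing of 1 heterozygous plant and were grown in the field. RNA of whole seeds was sequenced in 1 library per line, so no spread between seeds or plants could be computed. The number of plants behind each library is not given in the sources used here.

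In Arabidopsis, TT2 is a MYB transcription factor and TT8 a basic helix-loop-helix (bHLH) transcription factor, and both bind the WD40 protein TTG1. This complex switches on the late genes of proanthocyanidin synthesis in the seed coat, such as *BAN*, and loss of any of its parts leaves the seed coat pale. PAP1 (MYB75) is a MYB transcription factor that pairs with TT8 or with its relatives GL3 and EGL3 and drives the synthesis of anthocyanin, mainly in vegetative tissues. *B. napus* is an allotetraploid that carries an A and a C subgenome, so most Arabidopsis genes have several orthologs in it.

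Rounded estimated counts summed to 23236592 reads in the yellow and 23575447 in the brown library. RPKM is the number of reads per kilobase of unigene, scaled to the mapped reads of the library, and its 95% intervals here are exact Poisson intervals. Ratios are yellow over brown, scaled to these totals, with exact binomial 95% intervals. All of these intervals cover counting error only. A unigene was called when a two-sided Fisher's exact test gave an adjusted p under 0.05 and the log2 ratio was above 1 or below -1, a 2-fold change. Such a test sets 1 library against another and says nothing of how far seeds of the same line vary. In yellow seeds, 1650 of 50366 unigenes (3.28%) passed this rule as higher and 738 (1.47%) as lower.

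Of the 3 regulators, only *PAP1* was called between the libraries, and it was higher in yellow seeds. *TT2* and *TT8*, the MYB and bHLH partners of the seed coat complex, had ratios of 0.963 and 0.968, with intervals that include 1. In both libraries the order of the levels was the same, with *TT2* highest, *TT8* next and *PAP1* lowest. The study, with DEGseq and the same cut-offs, reported no significant difference for any *TT* ortholog and far fewer differentially expressed genes. It also described the *TT8* orthologs, which it placed on C09, as not transcribed. Why the present results differ from those of the study was not tested.

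*TT2* is represented by the unigene comp41502_c0, which is 1061 bp long. Its assigned gene lies on the minus strand of chromosome C08, from 11760224 to 11761170, a span of 947 bp that is shorter than the unigene. The best nucleotide hit was a *B. napus* mRNA of *TT2* isoform 2, described as a prematuration, alternatively spliced type, and the domain hit was a Myb-like DNA-binding domain. *TT2* had 407 reads in the yellow library and 429 reads in the brown library. Its transcription level was 16.5 RPKM (14.9 to 18.2) in yellow seeds and 17.1 RPKM (15.6 to 18.8) in brown seeds. The intervals of the libraries overlapped over most of their length. The ratio was 0.963 (0.838 to 1.10), or -0.06 on the log2 scale, and the adjusted p of Fisher's exact test was 0.811. *TT2* was the most abundant of the 3, ahead of 83.9% of all unigenes in yellow and 84.3% in brown seeds.

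*TT8* is represented by comp51450_c0, a unigene of 2035 bp. Its assigned gene lies on the minus strand of chromosome A09, from 15413735 to 15417282, a span of 3548 bp. The Swiss-Prot hit was Arabidopsis TT8 and the best nucleotide hit was the *B. napus* *TT8.1* mRNA. The KOG class of the same unigene, an oligoketide cyclase and lipid transport protein, is not that of a bHLH factor, and no Pfam domain was listed. *TT8* had 437 reads in the yellow library and 458 reads in the brown library. Its transcription level was 9.24 RPKM (8.39 to 10.1) in yellow seeds and 9.54 RPKM (8.69 to 10.5) in brown seeds. These intervals also overlapped over most of their length. The ratio was 0.968 (0.847 to 1.11), or -0.05 on the log2 scale, and the adjusted p of Fisher's exact test was 0.842. As counting error goes, the intervals of both *TT2* and *TT8* leave out a 2-fold change in either direction.

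*PAP1* is represented by comp39501_c0, a unigene of 1021 bp. Its assigned gene is on the plus strand of the unplaced sequence Un_random, from 41355763 to 41357465, a span of 1703 bp, and its name places it in the C subgenome with no chromosome. The Swiss-Prot hit was Arabidopsis MYB75, the best protein hit was MYB2 of *B. oleracea*, the best nucleotide hit was the *B. rapa* *PAP1* mRNA, and the domain hit was again Myb-like. *PAP1* had 85 reads in the yellow library and 35 reads in the brown library. Its transcription level was 3.58 RPKM (2.86 to 4.43) in yellow seeds and 1.45 RPKM (1.01 to 2.02) in brown seeds. The intervals of the libraries did not overlap. The ratio was 2.46 (1.64 to 3.76), or 1.30 on the log2 scale (0.72 to 1.91), and the adjusted p of Fisher's exact test was 5.8e-05. The lower end of the interval is below the 2-fold threshold. In rank, *PAP1* was ahead of 62.9% of all unigenes in yellow and 49.6% in brown seeds.

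**Figure D1:**
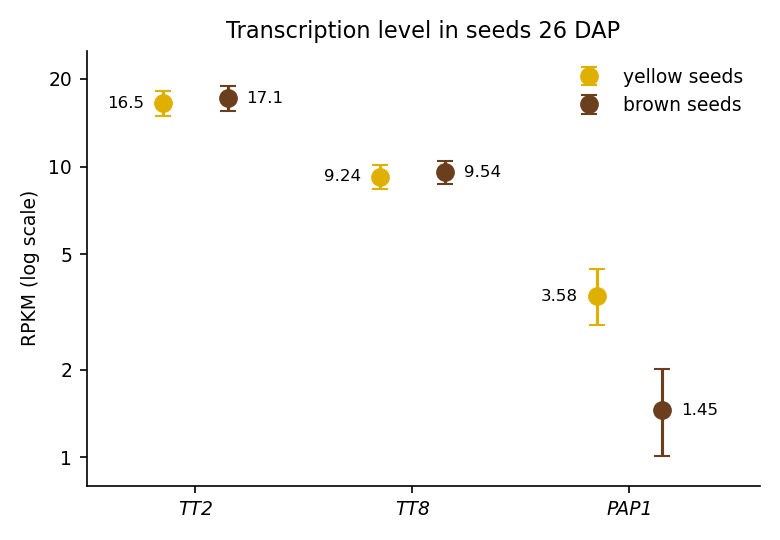
Transcription level (RPKM, log axis) of *TT2*, *TT8* and *PAP1* in the yellow and the brown library, with 1 point per library and bars for the exact Poisson 95% interval of the count. The points of *TT2* (16.5 and 17.1) and *TT8* (9.24 and 9.54) lie side by side, whereas *PAP1* was at 3.58 in yellow and 1.45 in brown seeds.

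The call of *PAP1* rests on 120 reads. Among the 6696 unigenes with 60 to 240 reads over both libraries, a range chosen after the values were seen, 351 (5.24%) were called higher in yellow seeds, and 2.94% had a log2 ratio at or above that of *PAP1*. Among unigenes of a depth like that of *TT8* (0.5 to 2 times its reads), 56.4% had a log2 ratio at or above its own, and the share for *TT2*, taken in the same way, was 57.8%. When a biological coefficient of variation of 0.2 was assumed in edgeR's exact test, the adjusted p of *PAP1* was 0.394 and none of the 3 was called.

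**Figure D2:**
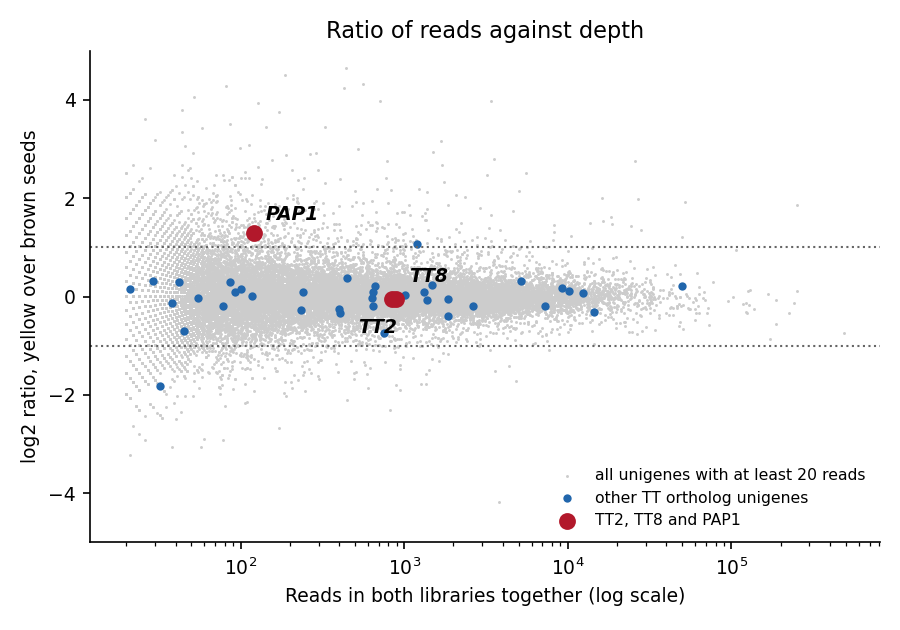
Log2 ratio (yellow over brown) against the reads in both libraries together (log axis) for the 29068 unigenes with at least 20 reads and reads in both libraries, where dotted lines mark a 2-fold change. 171 unigenes at 0 in 1 library are not drawn. *PAP1* lies at 120 reads above the upper line, and *TT2* and *TT8* lie near 0 in the middle of the cloud.

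The ratio of *PAP1* was 2.55 times that of *TT8* (1.66 to 3.97) and 2.56 times that of *TT2* (1.66 to 4.0), as exact intervals on the 4 counts of each pair show. The ratio of *TT8* was 1.01 times that of *TT2* (0.829 to 1.22). These 3 pairs are all the pairs that the unigenes allow. Per length, *TT2* stood at 1.79 times the level of *TT8* in yellow (1.56 to 2.05) and 1.80 times in brown seeds (1.57 to 2.05). Relative to *PAP1*, the level of *TT2* was 4.61 times as high in yellow (3.64 to 5.89) and 11.8 times in brown seeds (8.35 to 17.2). The level of *TT8* was 2.58 times that of *PAP1* in yellow (2.04 to 3.29) and 6.57 times in brown seeds (4.65 to 9.54). No interval of these level ratios includes 1, so neighbours in the order differed by more than counting error in both libraries.

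Of the 13 *B. napus* orthologs that the authors list for the 3 genes, 3 had a unigene and 10 had none. *TT2* has 2 orthologs, of which the one on C08 had a unigene and *BnaA08g29930D* on unplaced sequence of A08 had none. *TT8* has 3 orthologs, of which the A09 copy had a unigene, and both C09 copies, *BnaC09g24860D* and *BnaC09g24870D*, had none. *PAP1* has 8 orthologs, 3 in the A and 5 in the C subgenome by name, and only *BnaCnng28030D* had a unigene. Over both subgenomes, 1 of 5 A copies and 2 of 8 C copies of the 3 genes had a unigene, against 21 of 68 A copies and 19 of 71 C copies of all 139 *TT* orthologs. Each of the 3 unigenes was the only one of its assembly component and the only one assigned to its gene. The assembly may have merged the A and C copies of a gene into 1 unigene, in which case their reads cannot be told apart, and a copy with no unigene is not a measured 0. By description, 1 unigene each hit TT2, TT8 and MYB75 in Swiss-Prot, and 0 hit MYB90, MYB113 or MYB114, the nearest relatives of PAP1 in Arabidopsis.

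**Figure D3:**
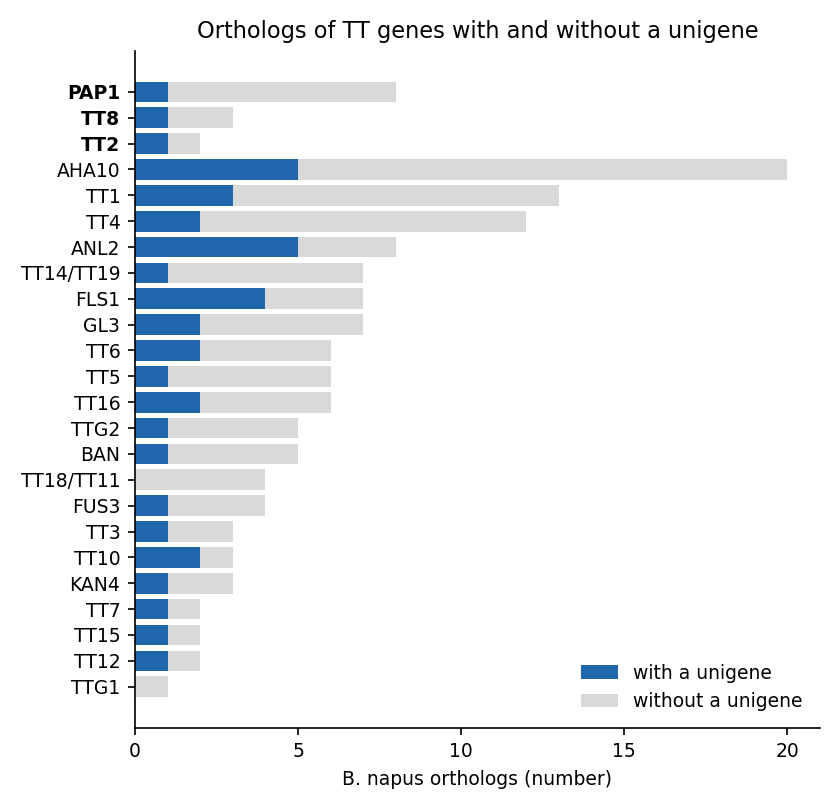
Number of *B. napus* orthologs of each Arabidopsis *TT* gene with a unigene (blue) and without one (grey). *TT2*, *TT8* and *PAP1*, at the top, had 1 ortholog with a unigene each out of 2, 3 and 8.

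Apart from the *TT8* unigene, 3 others had a *TT8* record as best nucleotide hit. One of them, comp47875_c0 on C09, hit the same *TT8.1* record but is a mitochondrial formate dehydrogenase by Swiss-Prot, and it had 3399 reads in the yellow and 3168 in the brown library. The others, comp5046_c0 and comp333687_c0, had 0 reads in yellow against 10 and 3 in brown seeds, and comp5046_c0 is a lectin-domain receptor kinase by Swiss-Prot. In Swiss-Prot and NR none of the 3 was described as a bHLH factor, and their reads were not added to those of *TT8*.

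Partners of the complex came next. *TTG1* has 1 listed ortholog, *BnaC07g29950D*, which had no unigene, and 0 unigenes were described as TTG1. *GL3*, a bHLH gene that acts in trichomes and in pigment synthesis in Arabidopsis, has 7 orthologs, of which 2 had unigenes, both in the C subgenome by name. The *GL3* unigene comp52422_c0 on C09, which is closest to EGL1 in Swiss-Prot, had 252 reads in yellow seeds against 196 in brown seeds, a ratio of 1.30 (1.08 to 1.58) that was below the 2-fold threshold. The remaining *GL3* unigenes had few reads, with 17 in yellow against 28 in brown seeds for comp41346_c0 and 8 against 4 for comp32460_c0. Neither was called.

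A wider list held 26 unigenes that are described as members, partners or repressors of the complex, 19 of them with at least 20 reads. Of these 19, yellow seeds had 2 called higher and 1 called lower, and the median log2 ratio was -0.07. Among all 29239 unigenes with at least 20 reads, 883 (3.02%) were called higher and 386 (1.32%) lower, and the median was -0.00. Without *TT2*, *TT8* and *PAP1*, the median of the remaining 16 was -0.27. The called unigenes were *PAP1* itself, an R3 MYB unigene and an *LBD38* unigene. The R3 MYB unigene comp29623_c0 on A08 is closest to TRY (TRIPTYCHON) in Swiss-Prot and to ETC2 (enhancer of triptychon and caprice) in NR, both inhibitors of trichome fate in Arabidopsis, and it had 30 reads in yellow and 0 reads in brown seeds. Set against a floor of 3 reads in the brown library, the ratio of comp29623_c0 was 10.1. The lower end of its exact binomial interval, which covers counting error, was 7.75. The other unigenes with TRY as Swiss-Prot hit were not called, with 20 reads in yellow seeds against 18 in brown seeds for comp33755_c0 and 9 and 4 for comp216823_c0. LBD38 is a LOB domain protein that represses anthocyanin genes in Arabidopsis, and its unigene comp45392_c0 on A03 had 32 reads in yellow seeds against 82 in brown seeds, a ratio of 0.396 (0.255 to 0.602) with an adjusted p of 5.4e-05 by Fisher's exact test. Below the minimum of 20 reads, comp33761_c0 on C09, which is MYB12 in Swiss-Prot and MYB111 in NR and NT, was also called higher, with 10 reads in yellow seeds against 0 in brown seeds. The ratio of comp33761_c0 was 3.38 by the same floor, and the lower end of its exact binomial interval was 2.27. Another unigene with the same hits, comp42994_c0 on A06, had 96 reads in yellow seeds against 64 in brown seeds. Its ratio was 1.52 (1.10 to 2.12), and it was not called.

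By level, the repressor *MYB4* unigene comp46113_c0 on A06 led this list, with 37.1 RPKM in yellow and 38.0 RPKM in brown seeds. *TT2* was second. The R3 MYB unigene comp41625_c0, closest to CPC in Swiss-Prot and to CAPRICE-like MYB3 in NR, followed with 10.4 RPKM in yellow and 12.3 RPKM in brown seeds, and then came comp52208_c1 (*MYB12*, a flavonol regulator in Arabidopsis) with 9.77 RPKM in yellow and 12.6 RPKM in brown seeds. The ratios of these unigenes were between 0.773 and 0.975 and none was called.

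The other regulators of the *TT* set showed no call. The list of regulators held 24 unigenes of orthologs of *TT1*, *TT2*, *TT8*, *TT16*, *TTG2*, *PAP1*, *GL3*, *KAN4*, *ANL2* and *FUS3*, and *PAP1* was the only one called (1 of 22 with at least 20 reads). Of the 21 without the 3 unigenes, 19 had at least 20 reads, and 0 of the 21 were called. Among all unigenes with at least 20 reads, 3.02% were called higher and 1.32% lower, so these counts are near that share. The median log2 ratio of the 22 was 0.03. The highest level belonged to the *ANL2* unigene comp54533_c1, a homeobox gene of anthocyanin in Arabidopsis leaves, with 3341 reads in yellow seeds against 3883 in brown seeds. *FUS3* (comp45368_c0), an embryo regulator, had 26.1 RPKM in yellow and 22.4 RPKM in brown seeds. *TT16* (comp46924_c0), a MADS-box gene of the inner seed coat layer, had 278 reads in yellow seeds against 471 in brown seeds, and its ratio of 0.599 (0.514 to 0.696) did not reach 2-fold. By level, *TT2* was at place 3 of this list in yellow and 4 in brown seeds, *TT8* at 8 in yellow and 9 in brown seeds, and *PAP1* at 16 in yellow and 18 in brown seeds.

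**Figure D4:**
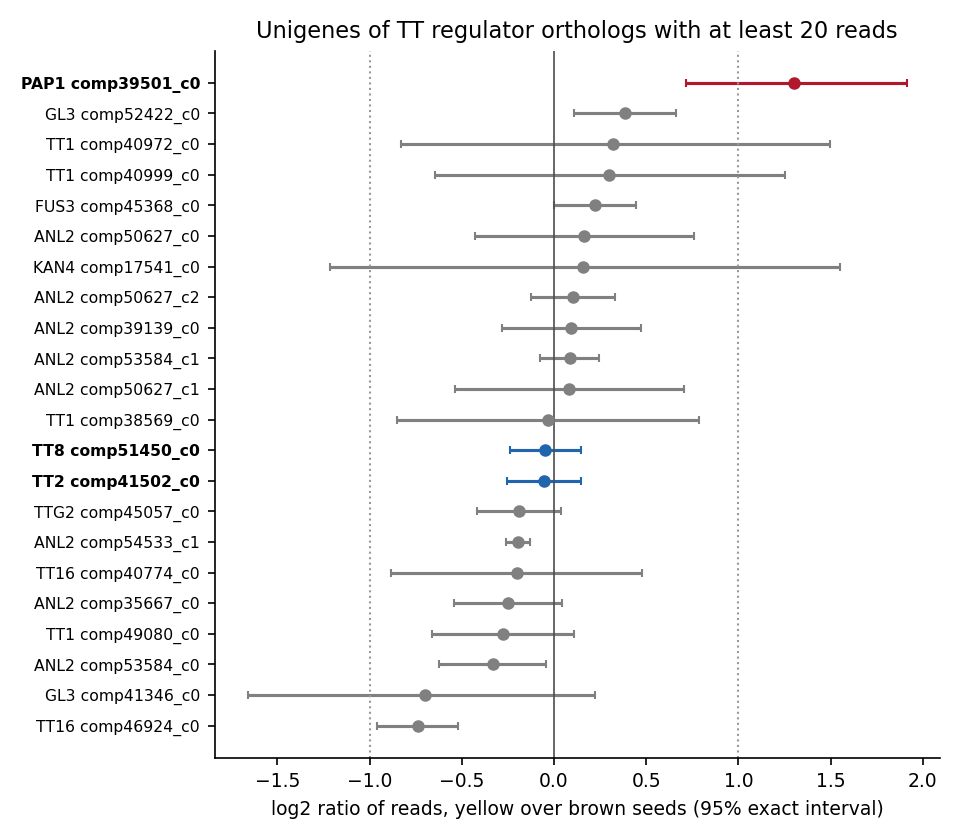
Log2 ratio (yellow over brown) with its exact 95% interval for the 22 unigenes of *TT* regulator orthologs with at least 20 reads, sorted by ratio, with dotted lines at a 2-fold change. *PAP1* (red) was called. *TT2* and *TT8* (blue) and the unigenes in grey were not called.

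The targets of the complex are the late genes of the pathway. Both late unigenes had fewer reads in yellow seeds by less than 2-fold. *DFR* (*TT3*, comp41806_c0 on A09), which makes leucoanthocyanidin, had 1210 reads in yellow seeds against 1411 in brown seeds, and its ratio was 0.870 (0.805 to 0.940) with an adjusted p of 0.0039 by Fisher's exact test. *BAN* (comp48572_c0 on C04), the anthocyanidin reductase, had 791 reads in yellow seeds against 1056 in brown seeds, and its ratio was 0.760 (0.692 to 0.834) with an adjusted p of 1.2e-07 by the same test. Neither was called. *LDOX* (*TT18/TT11*) has 4 listed orthologs and no unigene.

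Of the early enzymes, 10 unigenes were found, 7 of them with at least 20 reads, and 1 was called higher and 1 lower, beside 3.02% and 1.32% of all unigenes with that many reads. Their median log2 ratio was 0.17. Chalcone synthase (*TT4*, comp53405_c0), the first enzyme of the pathway, had 182 RPKM in yellow and 225 RPKM in brown seeds. The F3'H unigene of *TT7* (comp46443_c0) had 5216 reads in yellow seeds against 4882 in brown seeds. *FLS1* encodes a flavonol synthase, an enzyme that competes with DFR for substrate in Arabidopsis. A listed *FLS1* ortholog that is closest to FLS3 in Swiss-Prot and NR, comp45360_c0, had 106 RPKM in yellow and 94.2 RPKM in brown seeds. F3H (*TT6*, comp51496_c0) had 93.6 RPKM in yellow and 75.5 RPKM in brown seeds. Both called unigenes were *FLS1* orthologs. On C09, comp46835_c1 had 805 reads in yellow seeds against 390 in brown seeds, a ratio of 2.09 (1.85 to 2.37) that lies close to the threshold, and on A06 comp32217_c0 had 7 reads in yellow seeds against 25 in brown seeds, a ratio of 0.284 (0.104 to 0.676).

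Transport and oxidation genes held 12 unigenes, 9 with at least 20 reads, and none was called. Of all unigenes with that many reads, 3.02% were called higher and 1.32% lower, and nothing is read from this count in so short a list. The median log2 ratio of the 9 was 0.02. The laccase gene *TT10* (comp48255_c0 on C02), which oxidises proanthocyanidins to brown polymers in Arabidopsis, had 551 RPKM in yellow and 476 RPKM in brown seeds. A listed *AHA10* ortholog, a proton pump gene that is closest to AHA3 in Swiss-Prot (comp52457_c0), had 180 RPKM in yellow and 171 RPKM in brown seeds. The ortholog closest to AHA10 itself in Swiss-Prot, comp53222_c1, had 8.37 RPKM in yellow and 8.63 RPKM in brown seeds. *TT19* (comp43501_c0), a glutathione transferase gene, had 20.5 RPKM in yellow and 19.9 RPKM in brown seeds, and the vacuolar transporter gene *TT12* (comp48546_c0) had 16.7 RPKM in yellow and 17.5 RPKM in brown seeds. Over all 48 unigenes of *TT* orthologs, *TT2* stood at place 15 in both libraries, *TT8* at 21 in yellow and 22 in brown, and *PAP1* at 32 in yellow and 36 in brown seeds.

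Markers of the seed parts were counted beside these results. *PAP1* was higher in the library in which storage protein and oleosin genes of the embryo were higher. Over all 50366 unigenes, 3.28% passed as higher in yellow seeds and 1.47% as lower. The embryo list, made from words in descriptions, held 55 unigenes, of which 21 passed as higher and 3 as lower. Its summed level was 3894 RPKM in yellow and 1384 RPKM in brown seeds. Among these unigenes, 4 were at 0 in yellow and 3 at 0 in brown seeds. These words also caught lipid-transfer proteins, kinases and pollen oleosins, which are not embryo markers. When the list was narrowed, after its members were seen, to unigenes that Swiss-Prot describes as seed storage proteins, oleosins other than oleosin-B, ABI3, FUS3 or LEC2, 18 of 28 passed as higher and 1 as lower, and the summed level was 2325 RPKM in yellow and 601 RPKM in brown seeds. In the narrowed list, 2 were at 0 in yellow and 1 at 0 in brown seeds. The embryo list includes the *FUS3* unigene and the seed coat list the *TT10* unigenes. Napin (comp51403_c0), a storage protein of the embryo, had 22445 reads in yellow seeds against 3388 in brown seeds. Not all went this way. The *LEC2* unigene comp47132_c0 had 340 reads in yellow seeds against 529 in brown seeds, a ratio of 0.652 that did not reach 2-fold. The 1 unigene called lower in the narrowed list was a cruciferin, comp273222_c0, with 0 reads in yellow seeds against 13 in brown seeds. Of 5 seed coat markers, 0 were called, and their summed level was 614 RPKM in yellow and 553 RPKM in brown seeds. Most of that sum is *TT10*, and the 3 markers other than *TT10* summed to 62.1 RPKM in yellow and 77.7 RPKM in brown seeds. Of these, *GL2* (comp49107_c1), a homeobox gene of seed coat mucilage, had a ratio of 0.712 (0.663 to 0.766), which did not reach 2-fold. Another *GL2* unigene, comp49107_c0, had a ratio of 0.887 (0.778 to 1.01). The remaining marker, comp196251_c0, closest to GATL5 (galacturonosyltransferase-like 5), went the other way, with a ratio of 2.03 (1.03 to 4.17). It had 28 reads in yellow seeds against 14 in brown seeds. Of 13 endosperm markers, 0 were called, and their summed level was 210 RPKM in yellow and 214 RPKM in brown seeds. Most of that sum is 1 unigene closest to ICE1 (comp54574_c0), with 172 RPKM in yellow and 176 RPKM in brown seeds. The seed coat and endosperm lists are short, and no call in them is near the shares over all unigenes. The part of the embryo markers in the result of *PAP1* was not tested. In whole seeds, fewer cells of a type and less RNA per cell cannot be told apart.

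**Figure D5:**
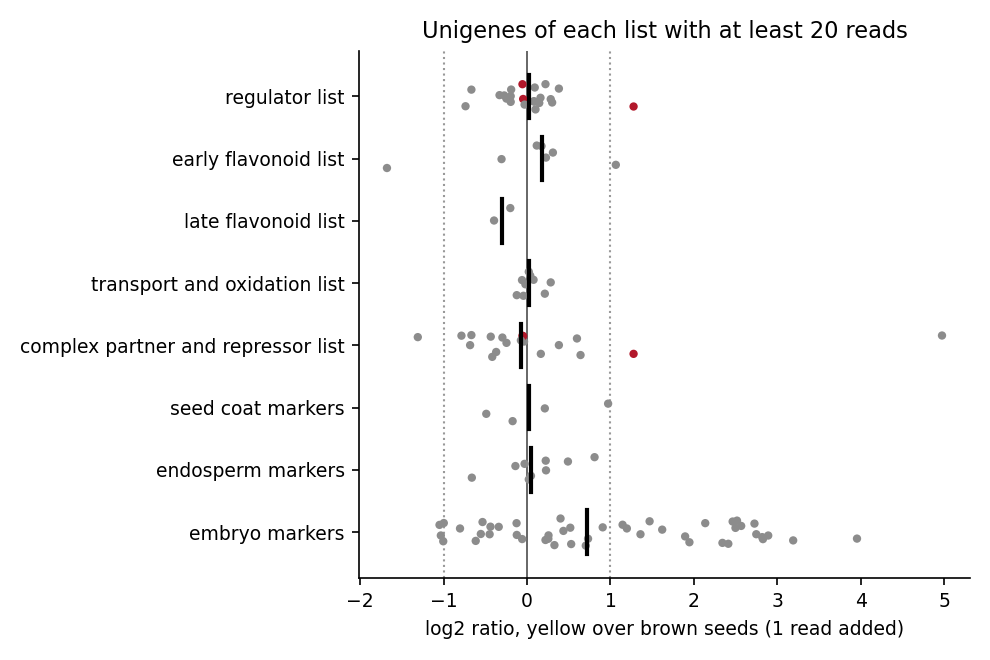
Log2 ratio (yellow over brown, with 1 read added to each library) of the unigenes of each list with at least 20 reads, where each point is a unigene, red points are *TT2*, *TT8* and *PAP1*, and the black bar is the median. Medians of the lists were between -0.30 and 0.17 except for the embryo markers, in the list made from words, at 0.72.

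In levels over the 2 libraries, the *TT* unigenes most like each regulator were named by their distance in log2 of RPKM plus 0.1. For *TT2* these were *TT12* (comp48546_c0, distance 0.03), an *ANL2* ortholog closest to HDG1 (comp53584_c1, 0.17) and *TT19* (comp43501_c0, 0.38). For *TT8* they were *AHA10* (comp53222_c1, 0.20), *ANL2* (comp39139_c0, 0.23) and an *ANL2* ortholog closest to HDG1 (comp53584_c0, 0.23). For *PAP1* the nearest lay farther off. They were an *ANL2* ortholog closest to HDG1 (comp50627_c0, 0.93), *TT1* (comp40999_c0, 0.94) and an *AHA10* ortholog closest to AHA2 (comp25659_c0, 1.33). Such likeness in 2 libraries is shared by many unigenes. Within the distance of *TT12* to *TT2* there were 40 unigenes in the whole table, within that of *AHA10* to *TT8* 767, and within that of the nearest unigene to *PAP1* 2758.

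The genes next to *TT8* did not differ by 2-fold either. Within 100 kb of it on A09, 3 unigenes were assigned, with ratios of 0.951, 0.915 and 1.14, and none was called. No other unigene was assigned within 100 kb of *TT2* on C08, and *PAP1* is not placed on a chromosome.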

How the data were processed

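RNA of whole seeds 26 DAP was sequenced as paired-end, polyA-selected libraries, 1 per line. Per the study's methods, the authors filtered the reads, assembled both libraries with Trinity and counted the reads that mapped to each unigene. Which aligner and counter they used, and whether strand was kept, is not given in the sources used here. Estimated counts were deposited by the authors without scaling, and 25.5% of the values in each library are not whole. The authors computed RPKM from each count, the unigene length and a fixed library total.

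Counts were rounded and compared by Fisher's exact test (SciPy 1.17.1), and p-values were adjusted over the 50366 unigenes by Benjamini and Hochberg's method. The tests were tried on simulated counts that held counting error alone, so false calls from spread between seeds of a line were not examined. Orthologs were taken from the study's list and joined by the assigned gene, and the other lists were made from words in Swiss-Prot and NR descriptions. Positions are those of the table on the *B. napus* genome that the authors used. After the descriptions were seen, hits to rice Myb4, animal MYBL2, c-myc and a bacterial strain were left out, and GLABRA was read as GLABRA 2 alone among the seed coat markers. List medians use 1 added read and members with at least 20 reads. The members and lists were chosen with earlier results of these data known.

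Named are the 3 unigenes, those of other orthologs of *TT2*, *TT8*, *PAP1*, *TTG1* and *GL3*, in each *TT* list and in the partner and repressor list the 4 with the highest mean RPKM and each called one, and the 3 *TT* unigenes nearest in level. *GL2*, *GATL5*, *LEC2*, *ICE1*, napin, a cruciferin and neighbours were picked after their values were seen. So were unigenes with a *TT8* record as hit and further unigenes close to TRY or MYB12. Alternatives were TMM (edgeR 4.0.16) and median-ratio scaling (DESeq2 1.42.0, R 4.3.3), the ratio of RPKM, 1 read added, halved counts, the DEGseq formula, an assumed biological coefficient of variation of 0.2, no fold threshold, minima of 1, 20 and 100 reads, 0.5 read added and effective lengths for an insert of 400 bp. Gene sequences were not used here. Python 3.11.15 was used.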

Additional observations from a re-analysis of the deposited data

How the results depend on the processing

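The log2 ratio of *PAP1* was 1.30 and stayed between 1.28 and 1.31 under TMM and median-ratio scaling, the ratio of RPKM, 1 added read and halved counts, with a call under each. When edgeR's exact test assumed a biological coefficient of variation of 0.2, its log2 ratio of 1.30 was no longer called (p 0.0115, adjusted p 0.394, against adjusted p between 3.4e-05 and 0.0194 under the other alternatives), and the number of called regulators was 0. Over all unigenes that setting called 348 higher and 98 lower, halved counts 650 and 203, the DEGseq formula 1326 and 669, and no fold threshold 4314 and 3676. *TT2* and *TT8* were not called under any alternative. With at least 100 reads, 1 early flavonoid unigene, 1 MYB unigene and 4 bHLH unigenes were called, against 2, 3 and 7 with at least 20 reads, and with any read 7 MYB unigenes were called. These counts differ because other unigenes were counted. The other 24 of 28 list counts stayed within 1.5 times, and the order of the 3 levels was the same with effective lengths. No paired analysis was possible because each line has 1 library.

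The 35 reads of *PAP1* in brown seeds gave an interval of 1.01 to 2.02 RPKM, and the spread between seeds of a line was not measured.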

Other observations

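The families of the 3 regulators were looked at as a whole. Of 76 unigenes described as MYB proteins with at least 20 reads, 1 (*PAP1*) was called higher and 2 lower in yellow seeds, and the median log2 ratio was -0.14. These are small counts beside the 3.02% called higher and 1.32% called lower among all unigenes with at least 20 reads. The lower ones were comp43040_c0 on A09, closest to MYB21, a flower regulator in Arabidopsis, with 12 reads in yellow seeds against 40 in brown seeds, and comp10172_c0 on C09, closest to MYB28, a regulator of aliphatic glucosinolates, with 14 reads in yellow seeds against 41 in brown seeds. Another *MYB28* unigene on C09, comp163450_c0, had 0 reads in yellow seeds against 13 in brown seeds. By level, *TT2* was at place 16 in yellow and 15 in brown seeds of 119 MYB unigenes, and *PAP1* at place 51 in yellow and 65 in brown seeds. The most abundant was comp48030_c0, described as MYB98 in Swiss-Prot and MYB118 in NR, with 130 RPKM in yellow and 180 RPKM in brown seeds.

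Of 116 bHLH unigenes with at least 20 reads, 3 were called higher and 4 lower, beside the same 3.02% and 1.32% of all unigenes, and the median log2 ratio was 0.02. Nothing particular to either family is read from these counts. *TT8* was at place 31 in yellow and 29 in brown seeds of 153 bHLH unigenes. Of the 3 that were higher, comp45384_c0 (bHLH71) had 372 reads in yellow seeds against 105 in brown seeds, and both others, comp45781_c0 and comp38203_c0, were closest to bHLH93, with 611 reads in yellow seeds against 280 in brown seeds for the first and 95 and 44 for the second. These unigenes were picked after their values were seen.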
